A study of Mus musculus with 6 samples.

Results

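The genes described here encode the subunits of voltage-gated sodium channels, voltage-gated calcium channels and hyperpolarization-activated (HCN) channels, together with the sodium leak channel NALCN. They are all genes of the table whose symbols name such a subunit (Scn genes with a letter a or b, Cacna1, Cacna2d, Cacnb, Cacng, Hcn and Nalcn), which gave 45 of the 48795 identifiers in the table. Polyadenylated RNA from mouse hippocampus was sequenced in 3 wild-type (WT) libraries and 3 double knockout (dKO) libraries, all on a C57BL/6J background. The dKO mice carried floxed alleles of Kdm1a, whose exons 5 and 6 are removed, and of Kdm5c, whose exons 11 and 12 are removed, with the tamoxifen-dependent recombinase CreERT2 under the CamKIIα promoter. Both groups received tamoxifen, at an age of 2 to 3 months. That promoter acts in the principal neurons of the forebrain, so glia, interneurons and other cells of the tissue keep both genes. The labels used here do not say whether WT mice carried the recombinase, at what age tissue was taken, or whether each library is from a different animal. The p-values therefore measure only the spread between these libraries. In bulk tissue fewer cells of a type and less RNA per cell cannot be told apart.

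Voltage-gated sodium channels open on depolarization and carry the rising phase of the action potential, and their beta subunits set gating and placement at the axon initial segment. Voltage-gated calcium channels turn depolarization into calcium entry: the alpha1 subunit forms the pore, beta and alpha2delta subunits bring it to the membrane, and most neuronal gamma proteins are instead auxiliary subunits of AMPA receptors (TARPs, transmembrane AMPA receptor regulatory proteins). HCN channels open on hyperpolarization and, with NALCN, set the resting potential and the response of dendrites to slow input. KDM1A and KDM5C are demethylases of lysine 4 of histone H3, and the comparison asks how transcript levels differ in the hippocampus after both are deleted in forebrain principal neurons.

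Total gene counts were 19309576 to 19700249 per library. Kdm1a measured 73.7 ± 3.95 counts per 1000000 (CPM, scaled by trimmed mean of M values) in WT and 38.6 ± 1.29 CPM in dKO (mean ± SD, n = 3 each), and Kdm5c measured 79.5 ± 2.97 and 70.6 ± 4.67 CPM. These are whole-gene counts, and they check the labels only in part because the deleted exons are a small piece of each transcript. The log2 fold change of Kdm1a was -0.93 (adjusted p = 4.32e-07) and that of Kdm5c was -0.17 (adjusted p = 0.143). A gene is called higher or lower below when its adjusted p was under 0.05 by the edgeR quasi-likelihood method (Benjamini-Hochberg, over the 16861 genes tested). Of these, 995 were higher and 177 lower in dKO, so 84.9% of calls were higher. With each library corrected for GC content the split was 1022 higher and 475 lower, or 68.3% higher. The number lower was 323 without WT replicate 3, and 102, 67 and 48 without dKO replicates 1, 2 and 3.

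Most channel genes did not pass the threshold, and those called were all higher. Of the 45 genes, 40 passed the filter on low counts, and 4 of these were higher (Cacng6, Cacng5, Cacna1h and Cacnb3) and 0 were lower. That is 10.0% of the tested channel genes higher, against 5.9% of all tested genes higher and 1.05% lower (6.95% either way). At an unadjusted p under 0.05 by the same test there were 8 of 40, against 20.2% of all genes. The median log2 fold change of the 40 was -0.03, with 25 below 0 and 15 above, and the median of all tested genes was -0.01. The dKO and WT libraries did not overlap for 8 of the 40, 5 of them above WT and 3 below. That is 20.0%, against 25.2% of all tested genes (14% above and 11.2% below). Cacng6 and Cacng5 were the only members called with a fold over 1.5. The count higher fell to 2 without WT replicate 1 or dKO replicate 2, and the count lower was 3 without WT replicate 3.

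**Figure D1:**
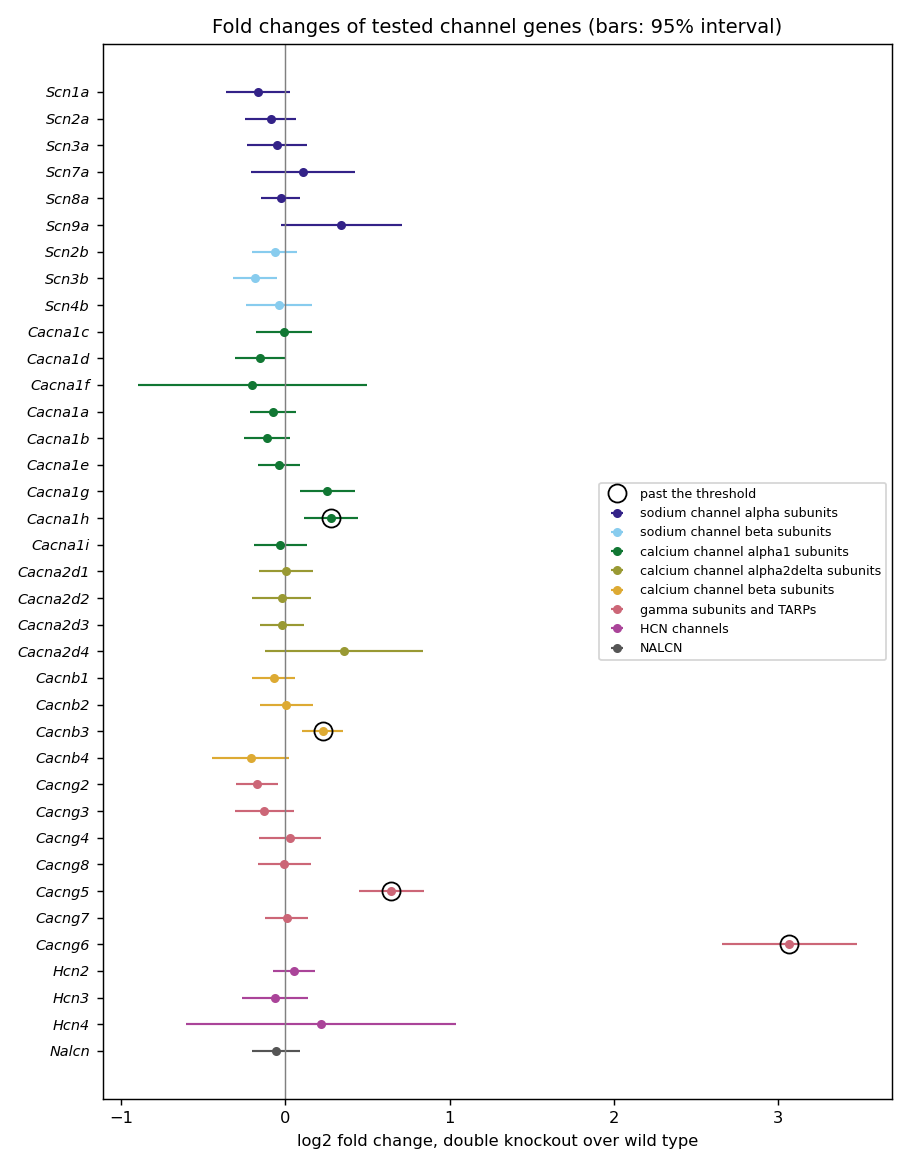
Log2 fold change of 37 tested channel genes in double knockout over wild type (x axis), with its 95% interval as a bar, coloured by subunit family and circled where the adjusted p was under 0.05. Cacng6 at 3.07 and Cacng5 at 0.65 stand to the right of all others, and Cacna1h and Cacnb3 are the other circled points.

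For most of the 36 genes that did not pass, the 95% interval of the main analysis was narrow. Their log2 fold changes ran from -0.21 to 0.36, with a median of -0.03. The 95% interval of the fold lay within 1.2-fold in either direction for 22 of the 36 and within 1.5-fold for 31. Sparsely expressed genes such as Scn9a, Cacna1f, Cacna2d4 and Hcn4 had wider intervals. Of the 36 only Hcn4 had an interval that reached past 2-fold. These intervals hold for the main analysis and do not cover the choice of processing. After GC correction the log2 fold change of Cacng8 was -0.27, outside its interval of -0.17 to 0.16. That of Hcn2 was -0.25, outside its interval of -0.08 to 0.18.

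Per length of transcript, the channel genes spanned several orders of magnitude in WT hippocampus. Scn3b (72.0 ± 5.42 CPM per 1000 exonic bases in WT) and Scn2b (68.2 ± 5.84), beta subunits of sodium channels, were among the highest and differed from each other by less than their SD, as did Cacnb3 (54.9 ± 2.69) and Cacng7 (53.7 ± 2.92) after them. The highest alpha subunit was Scn8a (30.4 ± 1.36), the highest HCN gene was Hcn2 (31.5 ± 0.743), and among pore-forming calcium channel genes Cacna1h (22.4 ± 2.28) and Cacna1e (19.7 ± 1.41) were the highest. The order depends on the length used: per 1000 bases of the longest transcript Cacna1e stood at 33.2 CPM in WT and Cacna1h at 26.6, and Cacnb3 at 80.5 and Cacng7 at 59.2. Cacng6 stood at rank 34 of 45 in WT, at 0.734 CPM per 1000 bases, and at rank 26 in dKO, at 6.18.

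**Figure D2:**
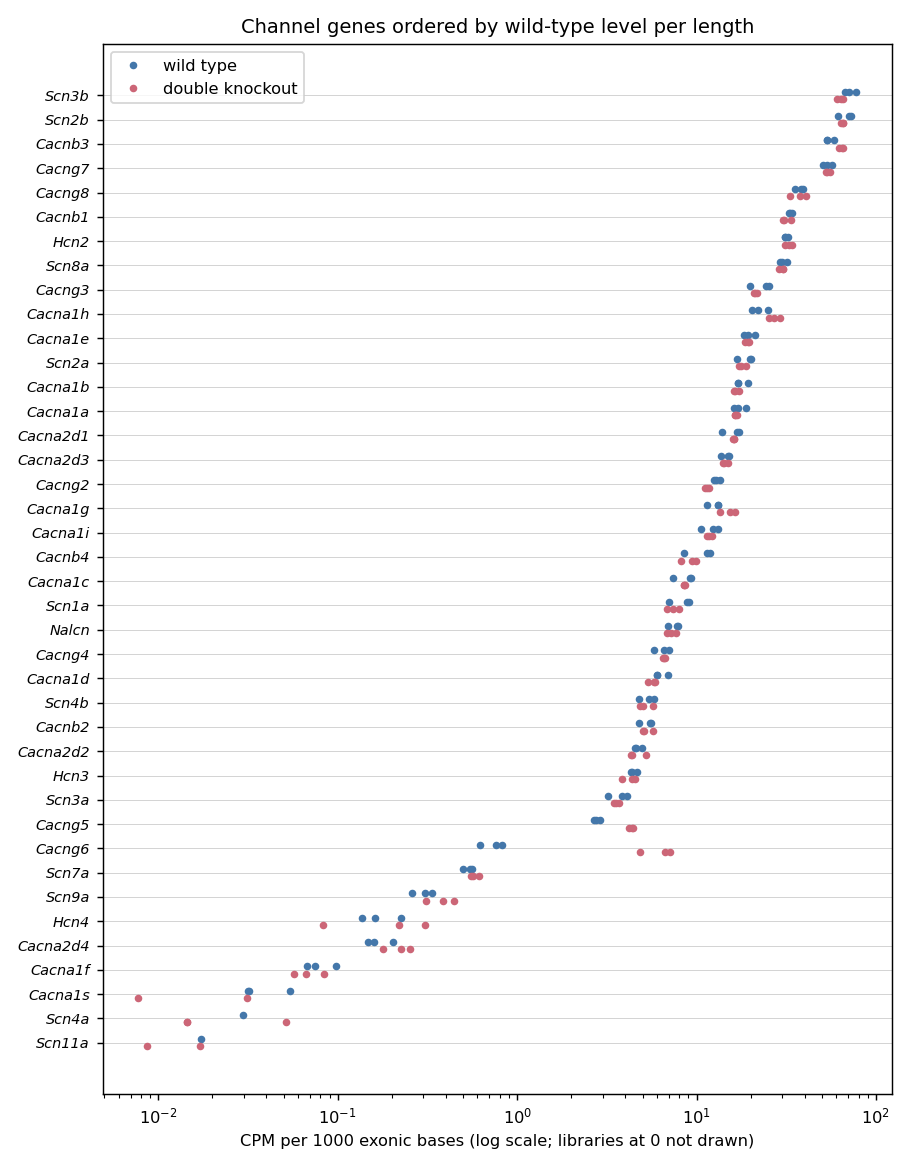
Level of the channel genes described here in each library, in CPM per 1000 exonic bases on a log axis, ordered by the WT mean (blue points WT, red points double knockout, 3 libraries each, libraries at 0 not drawn). The red points of Cacng6 and Cacng5 lie to the right of the blue ones, while most genes have interleaved points.

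Cacng6 had the largest change of the 45 genes and ranked 47 of all 16861 tested genes by fold change. It encodes a gamma subunit related to that of the skeletal muscle calcium channel and is not counted among the TARPs. Cacng6 (ENSMUSG00000078815, chromosome 7, 3424195 to 3435667, plus strand, GRCm38) had 24, 31 and 29 WT counts and 187, 255 and 276 dKO counts. These correspond to 1.22, 1.62 and 1.51 CPM in WT and 9.53, 13.1 and 14.0 CPM in dKO, so the lowest dKO library lay well above the highest WT library. The level was 8.40-fold higher (95% interval 6.33 to 11.2), a log2 fold change of 3.07 (SE 0.190, adjusted p = 1.36e-07). The call held in each of the 15 alternative analyses, with log2 fold changes of 2.96 to 3.22.

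The promoter windows of Cacng6 and Cacng5, the gamma genes that rose, are shown beside that of Cacng7. Cacng7 belongs to the same cluster as Cacng6 and did not pass. Each window runs from 250 bases before to 50 bases after the start of the gene in RefSeq (GRCm38.p6) and is written 5′ to 3′ on the strand of the gene. Capitals mark a match to a searched motif on either strand.
Cacng6 (chr7:3424412-3424711, plus strand): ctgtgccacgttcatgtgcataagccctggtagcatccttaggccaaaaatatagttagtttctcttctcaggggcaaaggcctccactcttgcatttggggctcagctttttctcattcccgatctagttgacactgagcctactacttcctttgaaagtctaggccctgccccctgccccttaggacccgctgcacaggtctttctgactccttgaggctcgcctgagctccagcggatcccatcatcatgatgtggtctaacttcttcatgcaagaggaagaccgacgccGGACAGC
Cacng7 (chr7:3332575-3332874, plus strand): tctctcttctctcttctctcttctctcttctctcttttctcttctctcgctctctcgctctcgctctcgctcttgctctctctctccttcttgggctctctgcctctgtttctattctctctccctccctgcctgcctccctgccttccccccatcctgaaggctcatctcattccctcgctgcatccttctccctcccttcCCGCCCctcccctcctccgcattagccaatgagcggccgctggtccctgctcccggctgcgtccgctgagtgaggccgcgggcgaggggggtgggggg
Cacng5 (chr11:107915006-107915305, minus strand): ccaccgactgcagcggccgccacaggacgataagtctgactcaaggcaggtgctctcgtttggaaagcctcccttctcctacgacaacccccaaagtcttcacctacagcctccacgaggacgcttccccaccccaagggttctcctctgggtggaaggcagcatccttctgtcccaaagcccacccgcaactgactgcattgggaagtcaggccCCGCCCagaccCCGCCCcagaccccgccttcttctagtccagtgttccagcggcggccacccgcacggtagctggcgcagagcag
The Cacng6 window holds GGACAGC, a piece of the longer site bound by the repressor REST, at its 3′ end, and the Cacng7 window and the Cacng5 window shown hold GGGCGG, the core of the GC box bound by Sp factors. RefSeq gives Cacng5 another window, at an inner start (chr11:107911313-107911612), which holds none of the motifs. The CpG count was 8 in the Cacng6 window, 15 in that of Cacng7, and 17 in the outer and 5 in the inner window of Cacng5, against a median of 7.0 over all 32851 RefSeq windows. Cacng8 lies closer to Cacng6 than Cacng7 does and did not pass either. Its window had a CpG count of 2 and held none of the motifs. The RefSeq start of Cacng6 lies inside the gene span given above.

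RefSeq windows were found for 33 of the 45 channel genes, 44 windows in all, and 6 motifs were searched on both strands, none of them contained in another. GGGCGG was in 40.9% of the channel windows and in 35.7% of all windows. GGACAGC was in 4.55% against 6.56%, and TATAAA, the TATA box, also in 4.55%, against 13.6% of all windows. TCAGCACC, another piece of the REST site, TGACGTCA, the cyclic AMP response element, and CACGTG, the E-box, were in 0 of the 44 windows, against 1.65%, 1.79% and 7.15% of all windows. The median CpG count of the channel windows was 10.0 and their median GC content 59.5%, against 52.7% for all windows. A match is a description of letters and not of binding.

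Among the 4 tested genes on each side of Cacng6, 2 were higher and 1 was lower, and the other gamma genes of the same cluster did not pass. The long noncoding RNA gene 3300002P13Rik lies 0.75 kb away on the opposite strand. It measured 71.8, 95.9 and 72.3 CPM in WT and 47.2, 51.3 and 52.1 CPM in dKO, a log2 fold change of -0.67 (SE 0.0986, adjusted p = 0.000552), opposite in sign to Cacng6. Gm35037, a long noncoding RNA gene 15.7 kb away on the same strand, rose from 0.758 ± 0.0978 to 2.09 ± 0.431 CPM (1.46, adjusted p = 0.00269). Cacng8, 8.55 kb away, and Cacng7, 56.0 kb away, had log2 fold changes of -0.01 and 0.01. Tarm1, an immune receptor gene 50.8 kb away, measured 0.260 ± 0.0923 CPM in WT and 0.732 ± 0.113 CPM in dKO (adjusted p = 0.0377). Its call was lost in DESeq2 (adjusted p = 0.175) and without each of the 6 libraries in turn (adjusted p from 0.0530 to 0.168).

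Other genes of striated muscle were compared, because the closest relative of Cacng6, Cacng1, is a muscle gene. Of 8 muscle markers 4 had enough counts to be tested and 2 were higher: Ryr1, the calcium release channel of muscle that neurons also express (57.6 ± 9.17 to 113 ± 9.74 CPM), and Acta1, skeletal actin (5.86 to 13.9 CPM). The list was chosen with earlier results known, and 5.9% of all tested genes were higher. The other tested markers, Mylpf and Actn3, did not pass (log2 fold changes 0.50 and 0.14, adjusted p = 0.420 and 0.832). The summed level of the 8 was 58.6 to 76.4 CPM in the WT libraries and 120 to 141 CPM in the dKO libraries. Ryr1 made up most of that sum in both groups. Ckm, the muscle creatine kinase, measured 0.0691 CPM in WT and 0.0681 CPM in dKO, and Tnnt3, Myh1 and Myl2 were also under 0.3 CPM. The channel genes that define muscle were at most 7 counts in any library: Cacng1 had 0 counts in WT and 1 in dKO, and Cacna1s had 15 in WT and 5 in dKO.

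**Figure D3:**
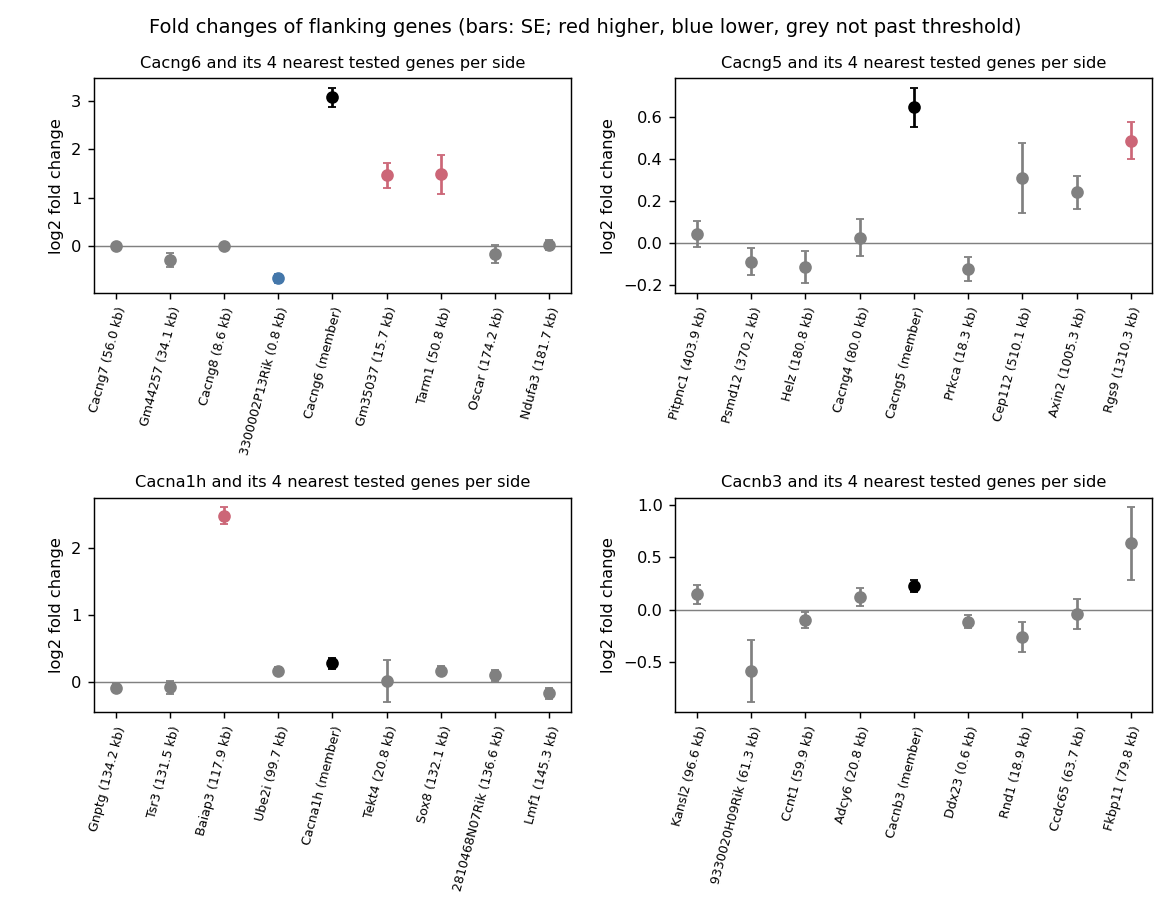
Log2 fold change in double knockout over wild type of Cacng6, Cacng5, Cacna1h and Cacnb3 (black) and of the 4 nearest tested genes on each side in chromosome order, with the distance in kb in each label and the SE as a bar (red higher, blue lower, grey not past the threshold). Beside Cacng6 one flanking gene is blue and a pair is red, Baiap3 is red beside Cacna1h, Rgs9 is red at the far end of the Cacng5 panel, and 0 of 8 genes are coloured beside Cacnb3.

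Cacng5 was the only TARP gene called in the main analysis. It encodes a type II TARP, a class that binds AMPA receptors and shapes their gating but differs from type I TARPs in its C-terminal end. Cacng5 (ENSMUSG00000040373, chromosome 11, 107874605 to 107915055, minus strand) measured 10.2, 10.6 and 11.0 CPM in WT and 16.1, 17.1 and 16.7 CPM in dKO. The groups did not overlap, the level was 1.56-fold higher (95% interval 1.36 to 1.79), and the log2 fold change was 0.65 (SE 0.0917, adjusted p = 0.000403). It held in each of the 15 alternatives, between 0.62 and 0.67. Of its 8 flanking tested genes only Rgs9, 1310 kb away, was higher (0.49), a gene that is also among the striatal markers given at the end. The other type II TARP gene, Cacng7, measured 124, 139 and 130 CPM in WT and 128, 131 and 136 CPM in dKO, with overlapping groups. Per length, Cacng5 made up 4.91 ± 0.257% of the summed type II level in WT and 7.43 ± 0.219% in dKO, without overlap, and Cacng7 remained the main transcript at 92.6%.

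The type I TARPs, which carry AMPA receptors to the synapse, did not pass the threshold. Cacng2 encodes stargazin, and it measured 74.1, 70.4 and 68.5 CPM in WT and 64.6, 63.1 and 61.0 CPM in dKO. All its dKO libraries lay below WT, and its log2 fold change was -0.17 (adjusted p = 0.107). Cacng8, the most abundant type I TARP gene per length, measured 82.8, 89.1 and 92.1 CPM in WT and 78.3, 96.0 and 88.5 CPM in dKO. It was called lower after GC correction (log2 fold change -0.27, adjusted p = 0.0135), against -0.01 without it. Cacng3 measured 70.6, 67.8 and 55.0 CPM in WT and 60.0, 58.3 and 58.7 CPM in dKO, where WT replicate 3 was the lowest of the 6 libraries. It was called lower without WT replicate 3 (-0.23, adjusted p = 0.0291) against -0.13 with it. Cacng4 had a log2 fold change of 0.03.

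T-type calcium channels open near the resting potential and support burst firing. Their summed level per length was 47.1 ± 4.41 CPM per 1000 bases in WT and 54.0 ± 2.07 in dKO, a ratio of 1.15 without overlap between groups. Cacna1h (ENSMUSG00000024112, chromosome 17, 25374285 to 25433783, minus strand) measured 199, 243 and 214 CPM in WT and 246, 284 and 265 CPM in dKO. The lowest dKO library stood just above the highest WT library. It was 1.21-fold higher (95% interval 1.08 to 1.36), a log2 fold change of 0.28 (SE 0.0768, adjusted p = 0.0439). The call was lost after GC correction (log2 fold change 0.13, adjusted p = 0.348), and the transcript has 60.3% GC against a median of 53.1% for the tested channel genes. It was also lost without WT replicate 1 (0.160), WT replicate 3 (0.0680), dKO replicate 2 (0.202) and dKO replicate 3 (0.143), the values being adjusted p. Cacna1h shares 158 exonic bases with the antisense gene Tpsg1, which had 1 to 6 counts per library.

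The other pair of T-type genes did not pass. Cacna1g measured 116, 134 and 133 CPM in WT and 165, 155 and 138 CPM in dKO, all dKO libraries above WT, with a log2 fold change of 0.26 (SE 0.0778, adjusted p = 0.0695). It passed in DESeq2 (adjusted p = 0.0336), with library size alone (0.0468), with no filter on low counts (0.0239) and without dKO replicate 3 (0.0375). After GC correction the log2 fold change of Cacna1g was 0.16 (adjusted p = 0.229), the transcript having 58.1% GC. Cacna1i measured 105, 130 and 122 CPM in WT and 121, 116 and 112 CPM in dKO, with overlapping groups and a log2 fold change of -0.03. Cacna1i thus made up 25.6 ± 0.492% of the summed T-type level in WT and 21.8 ± 0.955% in dKO, without overlap. The share of Cacna1h was 47.6 ± 1.14% in WT and 50.3 ± 2.93% in dKO, with overlap. Beside Cacna1h, 1 of the 8 flanking tested genes was higher: Baiap3, a protein of dense-core vesicle release 118 kb away, with 8.87, 10.2 and 10.8 CPM in WT and 61.1, 61.4 and 44.6 CPM in dKO (log2 fold change 2.48, adjusted p = 2.19e-08). The 8 genes beside Cacna1g gave 0 calls. Cacna1g is abundant in thalamus, and the summed level of 7 thalamus and habenula markers was 96.6 to 100.01 CPM in WT and 103 to 112 CPM in dKO. Of the 6 of these tested 2 were higher, Prkcd and Chrna3, while 3 had lower means in dKO without passing: Slc17a6 (20.6 ± 6.24 CPM in WT and 14.7 ± 2.97 CPM in dKO), Tcf7l2 (5.12 and 4.70 CPM) and Tac2 (3.57 and 3.37 CPM). The part of neighbouring tissue in these results was not tested.

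**Figure D4:**
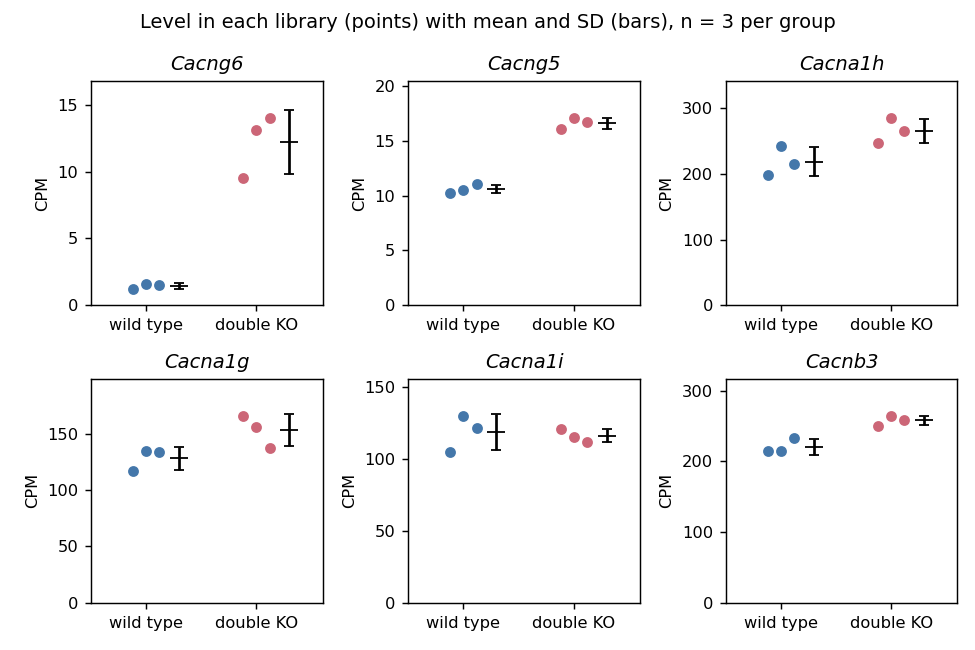
CPM of Cacng6, Cacng5, Cacna1h, Cacna1g, Cacna1i and Cacnb3 in each library (points), with the group mean and SD as a bar (n = 3 per group, axes from 0). The groups separate widely for Cacng6 and Cacng5, narrowly for Cacna1h, Cacna1g and Cacnb3, and overlap for Cacna1i.

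The high-voltage-activated pore subunits gave 0 calls. Among L-type genes, which couple depolarization to gene expression and pacemaking, Cacna1c measured 156, 196 and 195 CPM in WT and 183, 180 and 181 CPM in dKO. Cacna1d measured 75.6, 87.8 and 76.0 CPM in WT and 74.2, 73.2 and 67.7 CPM in dKO. All its dKO libraries lay just below WT, with a log2 fold change of -0.15 (adjusted p = 0.233). The P/Q-type gene Cacna1a and the N-type gene Cacna1b trigger transmitter release, and had log2 fold changes of -0.08 and -0.11 (adjusted p = 0.564 and 0.372). The R-type gene Cacna1e, at 496 ± 35.5 CPM in WT and 482 ± 11.8 CPM in dKO, had -0.04. Their summed level per length was 54.9 ± 3.92 CPM per 1000 bases in WT and 52.2 ± 0.582 in dKO, with overlap. Cacna1f, a channel of the retina, was at 0.725 ± 0.142 CPM in WT and 0.630 ± 0.126 CPM in dKO.

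Of the beta subunits, which release the alpha1 subunit from retention and tune its gating, Cacnb3 was higher. Cacnb3 (ENSMUSG00000003352, chromosome 15, 98630840 to 98644529, plus strand) measured 214, 214 and 233 CPM in WT and 251, 264 and 259 CPM in dKO, without overlap. It was 1.17-fold higher (95% interval 1.07 to 1.28), a log2 fold change of 0.23 (SE 0.0580, adjusted p = 0.0296). The call was lost after GC correction (log2 fold change 0.11, adjusted p = 0.208), and its transcript has 59.4% GC. The adjusted p was 0.101 without WT replicate 1, 0.0517 without WT replicate 2, 0.0681 without dKO replicate 1, 0.141 without dKO replicate 2 and 0.122 without dKO replicate 3. Cacnb3 made up 52.8 ± 1.77% of the summed beta level per length in WT and 58.2 ± 0.482% in dKO, and Cacnb1 made up 32.0 ± 0.137% and 28.7 ± 1.08%, both without overlap. Cacnb1 itself measured 148, 150 and 154 CPM in WT and 140, 152 and 138 CPM in dKO, with overlap (adjusted p = 0.549), and was called lower only after GC correction without a block (-0.19, adjusted p = 0.0361). Cacnb4, whose loss causes ataxia in mice, measured 107, 102 and 76.2 CPM in WT and 89.1, 73.2 and 84.4 CPM in dKO. Its log2 fold change was -0.21 (adjusted p = 0.304) and -0.35 without WT replicate 3 (adjusted p = 0.0110). Cacnb2 had a log2 fold change of 0.01.

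**Figure D5:**
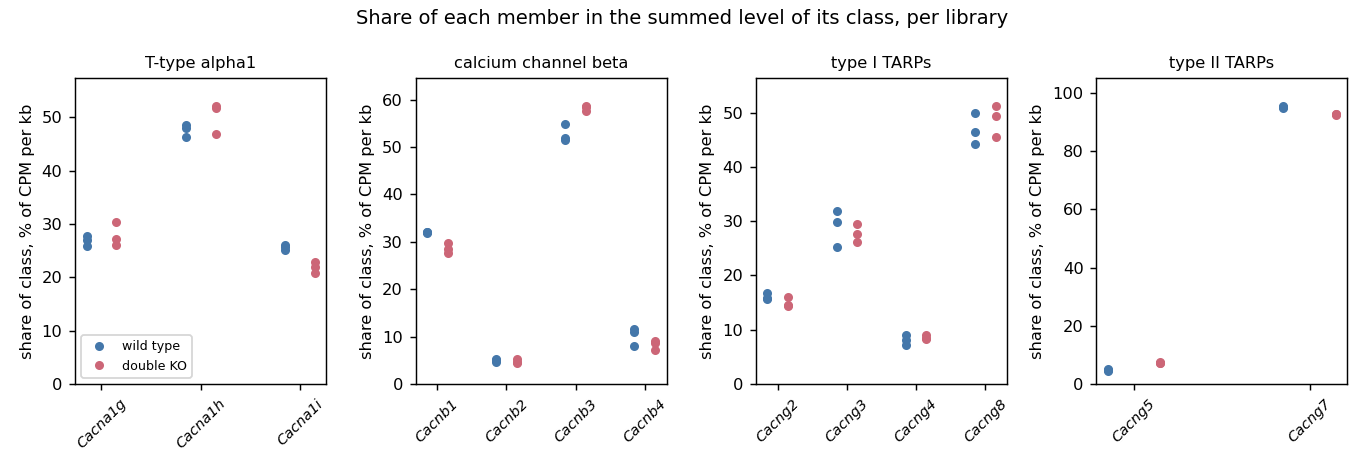
Share of each gene in the summed level of its class, in percent of CPM per 1000 exonic bases, for T-type alpha1, calcium channel beta, type I TARP and type II TARP genes (blue WT, red double knockout, 3 libraries each). Cacna1i, Cacnb1 and Cacng7 have lower shares and Cacnb3 and Cacng5 higher shares in every dKO library than in any WT library, and the type I TARP shares overlap. Shares add up to the whole class, so the lower share of Cacng7 is the counterpart of the higher share of Cacng5. The levels of Cacna1i, Cacnb1 and Cacng7 themselves overlap between groups.

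The alpha2delta subunits, which raise the number of channels at the membrane and bind gabapentin in the case of Cacna2d1 and Cacna2d2, gave 0 calls. Cacna2d1 measured 215, 209 and 172 CPM in WT and 201, 198 and 200 CPM in dKO, with overlap and a log2 fold change of 0.01. Cacna2d2 and Cacna2d3 each had a log2 fold change of -0.02. Cacna2d4 had the largest positive value among genes that did not pass, 0.36 (adjusted p = 0.408), at 1.62 ± 0.281 CPM in WT and 2.08 ± 0.347 CPM in dKO. Summed per length the class was at 35.5 ± 2.80 CPM per 1000 bases in WT and 35.3 ± 1.09 in dKO.

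None of the 7 tested sodium channel alpha genes was called. Scn8a, the channel of the axon initial segment and nodes, measured 471, 503 and 463 CPM in WT and 479, 477 and 452 CPM in dKO. Scn2a, which sits in excitatory axons early in life and in dendrites later, measured 258, 253 and 215 CPM in WT and 239, 218 and 224 CPM in dKO. Scn1a, the channel of fast-spiking interneurons and a cause of Dravet syndrome when mutated, measured 98.4, 101 and 78.1 CPM in WT and 88.4, 76.2 and 82.8 CPM in dKO. The groups overlapped for all of these, with log2 fold changes of -0.03, -0.09 and -0.17. Without WT replicate 3, the lowest WT library for each, Scn1a was called lower (-0.28, adjusted p = 0.0228). The fetal gene Scn3a had -0.05. Scn9a, a channel of pain-sensing neurons, measured 3.31, 3.92 and 4.27 CPM in WT and 5.66, 3.97 and 4.92 CPM in dKO (log2 fold change 0.34, adjusted p = 0.292), and it shares 180 exonic bases with the antisense gene Gm13629. Summed per length the alpha genes were at 62.6 ± 4.41 CPM per 1000 bases in WT and 59.9 ± 1.94 in dKO.

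The 4 sodium channel beta genes gave 0 calls. Scn3b measured 367, 425 and 388 CPM in WT and 332, 356 and 350 CPM in dKO, with all dKO libraries below WT and a log2 fold change of -0.18 (adjusted p = 0.108). Scn2b and Scn4b, which link to the alpha subunit by a disulfide bond, had -0.07 and -0.04.

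The 4 HCN genes and Nalcn gave 0 calls. Hcn2, which responds strongly to cyclic AMP, measured 99.2, 99.3 and 103 CPM in WT and 99.6, 109 and 104 CPM in dKO (log2 fold change 0.05, adjusted p = 0.697), and made up 76.7 ± 1.01% of the summed HCN level per length in WT and 78.2 ± 1.71% in dKO. Its transcript has 65.2% GC, and after GC correction the sign turned and the gene was called lower (-0.25, adjusted p = 0.00837). Hcn3 had a log2 fold change of -0.06. Hcn4, the pacemaker gene of the heart, was at 1.07 ± 0.279 CPM in WT and 1.24 ± 0.695 CPM in dKO. Nalcn measured 117, 114 and 102 CPM in WT and 113, 101 and 106 CPM in dKO, with a log2 fold change of -0.06 (adjusted p = 0.696).

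The 5 genes left out of the test are channels of muscle and of peripheral sensory neurons. Scn4a, of skeletal muscle, had 0, 4 and 0 counts in WT and 2, 7 and 2 in dKO. Scn11a, of sensory neurons, had 2 counts over the WT libraries and 3 over the dKO libraries. Scn10a, also of sensory neurons, had 0 counts in all 6 libraries, which allows a level of up to 0.0517 CPM over the WT group and 0.0510 CPM over the dKO group for counting error only. Cacna1s and Cacng1 are given above with the muscle markers. Of the 45 channel genes 12 share exonic bases with another annotated gene, and reads of overlapping genes could not be assigned with the strand setting not given.

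Proteins that bind these channels were examined as a list of 56 genes, of which 54 were tested, 4 were higher and 1 was lower, with a median log2 fold change of -0.06. That is 7.41% higher and 1.85% lower in the main analysis, near the 5.9% and 1.05% of all tested genes. After GC correction 4 partners were higher and 7 lower, against 1022 and 475 of all 16814 genes then tested. With the replicate block and GC correction 4 were higher and 8 lower, against 984 and 405. Of 11 sodium channel partners and axon initial segment genes, Fgf11, an intracellular factor that binds the channel tail, measured 52.8, 60.6 and 59.6 CPM in WT and 75.3, 74.6 and 77.5 CPM in dKO (0.39, SE 0.0653, adjusted p = 0.00153). Of 22 tested calcium channel partners 2 were higher and 1 lower. Stac2, an adaptor of L-type channels, measured 87.3, 88.4 and 92.6 CPM in WT and 145, 139 and 154 CPM in dKO (0.71, adjusted p = 3.67e-06). Rrad, a small GTPase that inhibits calcium channels, measured 0.510, 0.993 and 0.885 CPM in WT and 3.62, 3.66 and 4.06 CPM in dKO (2.24, adjusted p = 2.22e-05). The dKO libraries lay above WT for all 3 of these genes.

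Rims1, which tethers channels at the active zone, was the lower partner, at 188, 218 and 195 CPM in WT and 168, 162 and 166 CPM in dKO (log2 fold change -0.28, adjusted p = 0.0174). Its adjusted p was 0.0585, 0.0888 and 0.0855 without dKO replicates 1, 2 and 3 in turn. Of the 14 AMPA receptor subunits and other auxiliary proteins, Cnih3, a cornichon that slows receptor closing, measured 65.4, 64.1 and 64.0 CPM in WT and 74.1, 82.8 and 71.9 CPM in dKO (0.24, adjusted p = 0.0377). That call was lost after GC correction (adjusted p = 0.0690) and without each library in turn (0.0520 to 0.212). Among the 3 tested HCN partners, Pex5l (TRIP8b), which places HCN channels in dendrites, measured 173, 164 and 158 CPM in WT and 188, 186 and 200 CPM in dKO (0.21, adjusted p = 0.0531). It passed with library size alone (adjusted p = 0.0335), in DESeq2 (0.0274), in limma-voom (0.0450) and after GC correction (0.0248). The 4 NALCN partners gave 0 calls, Unc79 and Fam155a having log2 fold changes of -0.17 and -0.14 (adjusted p = 0.266 and 0.232). Kctd3, the other HCN partner named, had -0.07.

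Markers of cell types gave the following levels beside these results. Of 12 markers of hippocampal principal neurons 2 were higher and 2 lower, with summed levels of 2337 to 2542 CPM in WT and 2299 to 2481 CPM in dKO. Nectin3 (log2 fold change -0.55, adjusted p = 0.000344) and Neurod6 (-0.34, 0.00332) were lower. C1ql2 (0.46, 0.00847) and Dsp (0.43, 0.0306) were higher. C1ql2 lost its call after GC correction (adjusted p = 0.0938). Dsp lost it without WT replicates 1 and 3 (0.128 and 0.0589) and dKO replicates 2 and 3 (0.109 and 0.123). Slc17a7 measured 1336 ± 107 CPM in WT and 1318 ± 55.1 CPM in dKO. The 11 interneuron markers gave 0 calls, at 1173 to 1209 CPM and 1138 to 1217 CPM. Summed levels were above WT in every dKO library for 6 astrocyte markers (2252 to 2639 and 2716 to 2767 CPM, Gfap called higher) and 6 oligodendrocyte markers (4941 to 5360 and 5501 to 6190 CPM, Mbp called higher). The same held for 6 choroid plexus and ependyma markers (39.96 to 59.0 and 75.0 to 133 CPM, Kl called higher), 5 oligodendrocyte precursor markers (242 to 260.9 and 261.1 to 293 CPM, 0 called) and 6 striatum and neocortex markers (108 to 120 and 129.8 to 129.9 CPM, Rgs9 and Ppp1r1b called higher). In the last list Drd1 and Cux2 had log2 fold changes of -0.16 and -0.07, and Ppp1r1b lost its call without WT replicates 1 and 2 (adjusted p = 0.0935 and 0.0748) and dKO replicates 2 and 3 (0.0682 and 0.121). Of the choroid plexus and ependyma markers, Kl measured 22.0 ± 1.37 CPM in WT and 58.9 ± 3.45 CPM in dKO. Ttr measured 10.8 ± 7.23 CPM in WT and 38.8 ± 32.3 CPM in dKO, with overlap (adjusted p = 0.151). Folr1, Tmem212, Ccdc153 and Foxj1 also overlapped, with log2 fold changes of 0.49, 0.25, 0.02 and -0.05. Summed levels of 6 microglia markers overlapped (253 to 290.2 CPM in WT and 289.1 to 327 CPM in dKO), with 0 calls. Of these, Cx3cr1, Csf1r and P2ry12 lay above WT in every dKO library (log2 fold changes 0.24, 0.18 and 0.20). Aif1, C1qa and Tmem119 overlapped (0.39, 0.21 and 0.16). The 8 vascular markers overlapped and gave 0 calls. The call of Mbp was lost without dKO replicate 2 (adjusted p = 0.0564) and dKO replicate 3 (0.107). The part of these cells in the channel results was not tested.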

How the data were processed

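The authors deposited raw gene counts per library. The submitters' processing notes name cutadapt 1.18, HISAT2, HTSeq 0.11.1 and the GRCm38 (mm10) build. For HISAT2 the version, and for HTSeq the strand setting and annotation, are not given in these sources. Symbols, coordinates and exon lengths came from GENCODE M21, and 360 identifiers did not match. Genes were filtered with filterByExpr (minimum count 10, minimum total 15), scaled with TMM and tested with edgeR 4.0.16 (quasi-likelihood, Benjamini-Hochberg adjustment) in R 4.3.3, group being the only term. The test was checked on simulated counts. Levels per 1000 bases used the union of exons. Other settings tried were DESeq2 1.42.0, RLE scaling, library size alone, limma-voom (limma 3.58.1), 2 other filters, a replicate block, GC correction (loess, span 0.3), other thresholds and leaving out each library. The channel genes, partner and marker lists were chosen with earlier results of these data known. Named genes were the called members, those whose groups do not overlap, the most abundant of each family, and partners past or nearest the threshold. Some channel genes are not reported here because they are withheld for evaluation.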

Additional observations from a re-analysis of the deposited data

How the results depend on the processing

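Of the 4 channel genes called higher, Cacng6 and Cacng5 kept their call in all 15 alternatives run per gene, and Cacna1h and Cacnb3 did not. The count of channel genes higher was 2 after GC correction, 2 with a replicate block and GC correction, 2 at a threshold of 0.01 and 2 to 3 on leaving out 1 library (2 without WT replicate 1 or dKO replicate 2). The count lower was 0 in the main analysis, 3 after GC correction, 2 with the block and GC correction, and 0 to 3 on leaving out 1 library, the 3 being Scn1a, Cacnb4 and Cacng3 without WT replicate 3. Hcn2 turned from 0.05 to -0.25 after GC correction, with or without the block (adjusted p = 0.0218 and 0.00837). The cause was not tested. Of the 36 genes not called, 30 were never called in the 15 alternatives and 19 changed sign in at least 1 of them.

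For all genes higher in dKO the count was 614 at a threshold of 0.01 and 676 to 1101 on leaving out 1 library. For all genes lower in dKO it was 279 with no filter, 475 after GC correction, 405 with the block and GC correction, 395 at a threshold of 0.1, 47 at 0.01 and 48 to 323 on leaving out 1 library (323 without WT replicate 3, 102, 67 and 48 without dKO replicates 1, 2 and 3). Partner genes higher were 7 at a threshold of 0.1. Partner genes lower were 3 with no filter, 3 with the replicate block, 7 after GC correction, 8 with both, 2 and 0 at thresholds of 0.1 and 0.01, and 0 to 4 on leaving out 1 library (2 and 4 without WT replicates 2 and 3, 0 without any dKO replicate). Deviations of same-numbered libraries from their group mean correlated at 0.00163, -0.00209 and -0.0258 over 16861 genes. Among pairs of unlike number, 3 correlated above 0.1 (WT 1 with dKO 3 at 0.128, WT 3 with dKO 2 at 0.121, WT 2 with dKO 1 at 0.106). The remaining 3 were of like size and negative (WT 3 with dKO 1 at -0.104, WT 1 with dKO 2 at -0.123, WT 2 with dKO 3 at -0.102). Deviations from a group mean offset each other, so these values cannot show which libraries, if any, were paired. With the replicate block 960 genes were higher and 149 lower, and 4 channel genes were higher and 0 lower. Shares within a class moved by over 1 SD for 53 of 90 values when the longest transcript replaced the exon union.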
